A study of Mus musculus with 2 samples.

Results

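The kynurenine pathway was represented by 10 enzyme genes, Tdo2, Ido1, Ido2, Afmid, Kmo, Kynu, Haao, Acmsd, Qprt and Aadat, chosen as a fixed list of gene symbols. All 10 were found among the 37069 gene names of the array, through 12 of its probes. Expression was measured in the prefrontal cortex (PFC) of male C57Bl/6 N sea mice, on 2 one-color Agilent arrays. The C array carried pooled RNA of control mice given ordinary care in cages of 3 to 5, and the CMS array pooled RNA of mice housed singly and exposed to chronic mild stress (CMS), a rotating schedule of unpredictable mild stressors, for 4 weeks. Mice were 9 to 10 weeks old at the start, and the brains were taken on the day after the last stressor. The design text of the series gives 7 mice per pool, whereas the study's methods give 10 mice per group for arrays and qRT-PCR. With 1 pool per group there were no replicates, so no difference could be set against the spread between mice and no test between groups was possible. Single housing went together with CMS, and their effects cannot be told apart.

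The kynurenine pathway is the main route by which the body breaks down tryptophan, the amino acid from which serotonin is also made. Its first and rate-limiting reaction is carried out by Tdo2, which is abundant in the liver and is induced by glucocorticoids and by tryptophan itself, or by Ido1, which is induced by interferon gamma in immune and other cells. Kynurenine then either becomes kynurenate, which blocks glutamate receptors, or is oxidized toward quinolinate, which activates NMDA receptors, and NAD. In the brain the oxidative branch is known mainly from microglia and the kynurenate branch from astrocytes.

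Signals are given here as the scanner software's processed intensity, with background subtracted, scaled so that each array had a mean of 2500 over its probes. A probe was called detected on an array where the software marked it as well above background. The lowest signal of any detected probe was 17.8 on the C array and 17.6 on the CMS array. It serves below as an approximate limit of detection and is not a strict cut-off. Tph1, for example, gave 18.6 on the C array and was not detected there. Where a probe was detected on 1 array only, its ratio was taken against the higher of its own signal and that lowest signal, and is a bound. Such a bound, given below as "at least", is as approximate as the limit of detection and depends on the processing. Each of the 12 probes was a single spot, and no spot of them was marked as an outlier. The error given with a ratio is the software's own estimate of the error of both spots, and it does not cover differences between mice. Signals of different probes cannot be compared with each other, since probes differ in how strongly they bind. In pooled tissue RNA, fewer cells of a type and less RNA per cell cannot be told apart.

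At least 1 probe was detected on both arrays for 6 of the 10 enzymes, Tdo2, Ido2, Afmid, Kmo, Haao and Qprt, against 68.7% of all gene names. Acmsd was detected on the CMS array only. For Ido1, Kynu and Aadat no probe was detected on either array, as was the case for 26.8% of all gene names. The 6 enzymes detected on both arrays had log2 ratios of CMS over C above 0, which held for 40% of the 25442 gene names whose probe was detected on both. Of the 7 enzymes with a ratio, 2 were more than 2-fold higher in CMS, Tdo2 and Kmo, compared with 1.96% of the 27117 gene names with a ratio. None was more than 2-fold lower, compared with 0.564%. The Kmo call rested on 1 of its 2 probes.

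**Figure D1:**
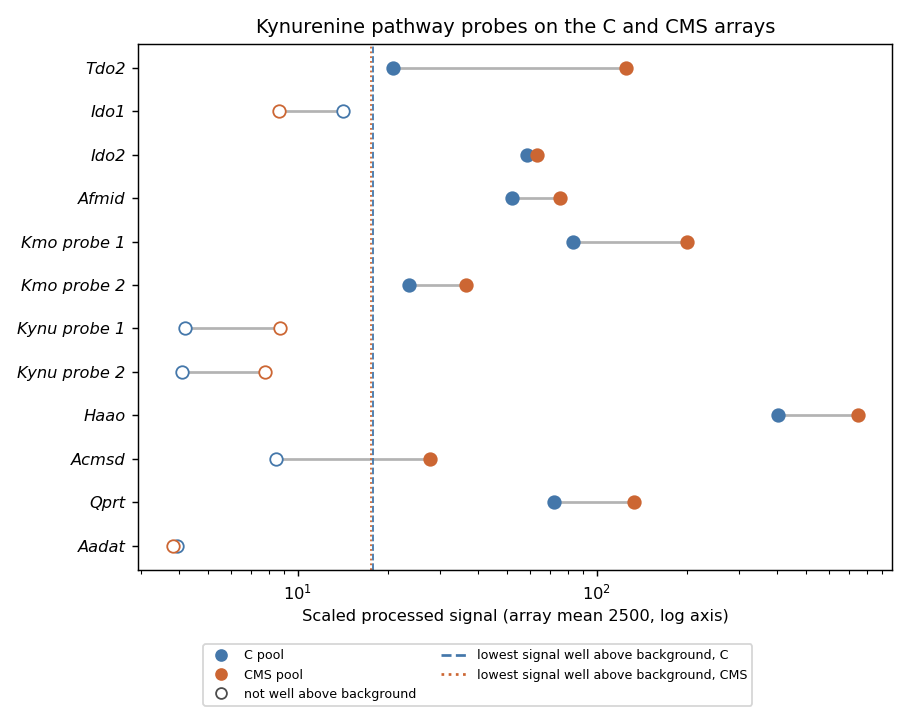
Scaled processed signal (horizontal log axis) of the 12 probes of the 10 enzymes, in pathway order, on the C array (blue) and the CMS array (orange). Open symbols mark probes not well above background and vertical lines the lowest detected signal of each array. The Tdo2 signal rose from 20.9, just right of the lines, to 125, whereas Ido1, Kynu and Aadat lay left of the lines on both arrays.

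Promoters of 7 of the enzymes were matched in the RefSeq table of GRCm38.p6, and 4 of them are shown: Tdo2 and Kmo as the enzymes past 2-fold, Haao for its signal far above the limit of detection on both arrays, and Aadat for its lack of a detected signal. Each is the 250 bases before the start of the gene, 5′ to 3′ on the strand of the gene, with matches to the motifs searched in capitals.
Tdo2 (chr3:81975729-81975978, minus strand): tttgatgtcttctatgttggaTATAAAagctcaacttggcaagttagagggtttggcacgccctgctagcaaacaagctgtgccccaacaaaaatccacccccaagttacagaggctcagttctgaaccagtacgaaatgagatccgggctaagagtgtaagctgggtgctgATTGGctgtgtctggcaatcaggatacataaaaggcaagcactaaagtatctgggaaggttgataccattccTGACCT
Kmo (chr1:175631943-175632192, plus strand): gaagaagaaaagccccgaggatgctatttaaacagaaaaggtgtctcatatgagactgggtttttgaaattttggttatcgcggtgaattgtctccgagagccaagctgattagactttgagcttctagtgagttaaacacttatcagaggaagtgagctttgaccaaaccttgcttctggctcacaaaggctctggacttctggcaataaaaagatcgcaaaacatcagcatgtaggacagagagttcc
Haao (chr17:83846791-83847040, minus strand): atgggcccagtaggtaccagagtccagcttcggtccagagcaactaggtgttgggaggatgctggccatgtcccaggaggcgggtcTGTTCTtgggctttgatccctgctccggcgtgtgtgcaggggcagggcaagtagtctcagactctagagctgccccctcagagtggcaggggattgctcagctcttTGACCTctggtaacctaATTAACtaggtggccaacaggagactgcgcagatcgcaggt
Aadat (chr8:60505874-60506123, plus strand): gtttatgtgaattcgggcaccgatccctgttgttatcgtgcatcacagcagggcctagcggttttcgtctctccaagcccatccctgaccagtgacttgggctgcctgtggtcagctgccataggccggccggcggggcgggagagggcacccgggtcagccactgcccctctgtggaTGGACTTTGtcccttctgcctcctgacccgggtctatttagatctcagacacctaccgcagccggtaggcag

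The letters searched, on both strands, were CAAAGTCCA for the core of an HNF4 site, AGGTCA for the repeat unit of nuclear receptor sites, GTTAAT for an arm of an HNF1 site, TGTTCT for an arm of a glucocorticoid receptor site, TATAAA for the TATA box and CCAAT for the CCAAT box. Matches did not overlap in these windows. The HNF4 core matched 1 of the 7 promoters, that of Aadat, 64 to 72 bases before the start, compared with 0.384% of all 32851 promoters of the same length. The nuclear receptor unit matched 3 of the 7, those of Tdo2, Haao and Acmsd, compared with 14% of all promoters. In the Tdo2 window it ended at the base before the start, and TATAAA and the CCAAT box, held by 12.4% and 33.8% of all promoters, matched further upstream. The window of Haao also held 1 HNF1 arm and 1 glucocorticoid receptor arm, held by 6.43% and 16.1% of all promoters. Those of Kmo, Afmid and Qprt held none of these letters. A match of letters is a description and not a measured binding site. Aadat, whose window held the HNF4 letters, was not detected on either array.

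Of the first-step enzymes, Tdo2 (tryptophan 2,3-dioxygenase, NM_019911) had the largest ratio. Its probe gave 20.9 on the C array and 125 on the CMS array, a log2 ratio of 2.59 ± 0.32 (scanner error) or 6.01-fold. The C value lay close to the limit of detection, at 1.17 times the lowest detected signal, and the CMS value was 7.12 times that signal. In the raw image the spot had a median of 74 over a local background of 51 on the C array, and 194 over 41 on the CMS array. Only 170 of the 27117 gene names with a ratio (0.627%) had a larger ratio than Tdo2. Probes with several spots and a mean log2 signal within 1 of the Tdo2 probe gave log2 ratios with a pooled SD of 0.25 between spots (71 probes), compared with 0.13 over all 342 such probes. The Tdo2 log2 ratio was 1.34 with another background correction, normexp, which added 50 to every corrected signal before the arrays were quantile normalized. A constant added on both arrays shrinks the ratios of dim probes most, so 1.34 does not reflect the background correction alone. The study itself singled out Tdo2 on these arrays, so its rise here is not independent evidence.

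No comparable ratio was measured for the other first-step enzymes. Ido1 (indoleamine 2,3-dioxygenase 1, NM_008324), the enzyme induced by interferon gamma, gave 14.1 on the C array and 8.64 on the CMS array, both under the lowest detected signal, and no ratio can be given. Ido2 (NM_145949), a paralog of Ido1 with weaker activity on tryptophan, gave 58.4 and 63.1, a log2 ratio of 0.11 ± 0.26. That difference was smaller than the scanner error, and it turned to -0.06 when the arrays were left unscaled.

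Afmid (NM_027827), the formamidase that turns N-formylkynurenine into kynurenine, gave 52.1 on the C array and 75.3 on the CMS array. The log2 ratio was 0.53 ± 0.26, about 2.08 times its scanner error and short of 2-fold. Under normexp it was 0.32.

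Kmo (kynurenine 3-monooxygenase, NM_133809) opens the branch toward quinolinate and was measured by 2 probes, which differed in the size of the change. The probe with the higher signal gave 83.2 and 201, a log2 ratio of 1.27 ± 0.22 or 2.41-fold. The other gave 23.6 and 36.6, a log2 ratio of 0.64 ± 0.36 or 1.56-fold. Both probes were higher in CMS, but Kmo was past 2-fold only by the first, and the mean of both was 0.95. Normexp also brought Kmo under the threshold, to 0.89.

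Kynu (kynureninase, NM_027552), which cleaves 3-hydroxykynurenine, also had 2 probes, and neither was detected. They gave 4.19 and 4.10 on the C array and 8.71 and 7.74 on the CMS array. Each of these signals was less than the lowest detected signal, so the step between Kmo and Haao could not be followed.

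Haao (3-hydroxyanthranilate dioxygenase, NM_025325), which makes the immediate precursor of quinolinate, gave 404 on the C array and 749 on the CMS array. The log2 ratio was 0.89 ± 0.20, or 1.85-fold. Its C signal was 22.7 times the lowest detected signal, so that of the enzymes with a ratio Haao was the least affected by the limit of detection. Its log2 ratio stayed between 0.72 and 0.91 over the 13 alternative settings tried. With 1 probe detected on both arrays, the settings for the bound, the filters and the choice of probe could not change it.

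Qprt (NM_133686), which converts quinolinate to a precursor of NAD, gave 71.8 and 133, a log2 ratio of 0.89 ± 0.22 and thus also 1.85-fold. Unlike that of Haao, its log2 ratio fell to 0.51 under normexp. Acmsd (NM_001033041), which draws the precursor made by Haao away from quinolinate, gave 8.47 on the C array, not well above background, and 27.7 on the CMS array. With the processing used here it was at least 1.56-fold higher in CMS, a log2 bound of 0.64. The bound fell to 0.47 without scaling and to 0.34 under normexp. For this gene the bound depends on the limit of detection, since the measured signals alone would give a log2 ratio of 1.71.

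Aadat (NM_011834), an aminotransferase that forms kynurenate, gave 3.95 and 3.82, both far below the limit of detection. The other aminotransferases able to carry out this step were therefore looked at, although their RNA does not measure the kynurenate branch itself. Kyat1 gave 3121 and 3079, a log2 ratio of -0.02, and Got2, the mitochondrial aspartate aminotransferase, gave 12360.1 and 11284, a log2 ratio of -0.13. Kyat3 gave 741 and 893, a log2 ratio of 0.27 ± 0.20. None of these 3 genes passed 2-fold, compared with 1.96% of all gene names with a ratio that were higher and 0.564% that were lower. At these shares, 3 genes would rarely hold any.

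**Figure D2:**
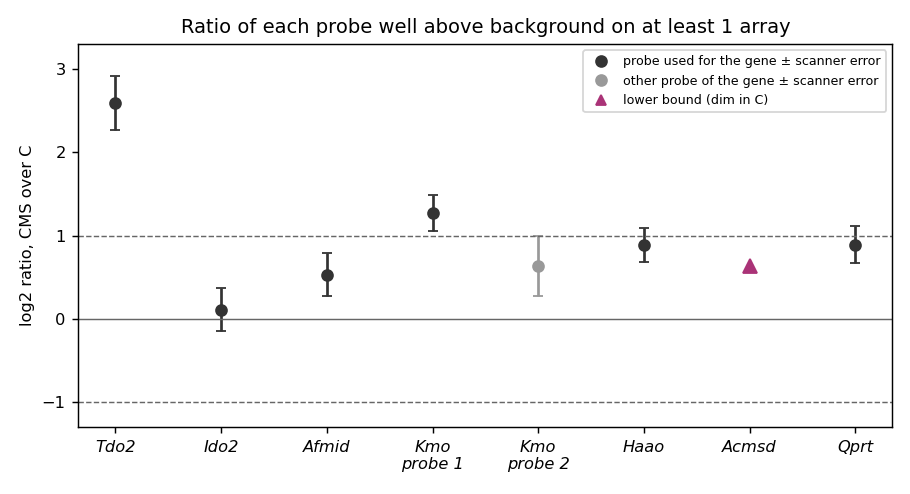
Log2 ratio of CMS over C for each probe detected on at least 1 array, in pathway order, with the scanner error as bars, and dashed lines at a 2-fold difference. Tdo2 stands at 2.59, the Kmo probes at 1.27 and 0.64, Haao and Qprt at 0.89, and the triangle of Acmsd is a lower bound.

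By size of the ratio, the enzymes ranked from Tdo2 through Kmo, Haao, Qprt, the bound of Acmsd and Afmid to Ido2. The ranges of ratio plus and minus scanner error overlapped between Kmo and Haao, between Kmo and Qprt and between Haao and Qprt. The range of Afmid overlapped those of Haao, Qprt and Ido2, and the bound of Acmsd lay within it. Below Tdo2, the order of neighboring enzymes was therefore not resolved by these errors. The ratio of Tdo2 less its scanner error was above the ratio plus error of each of the other 5 enzymes detected on both arrays. The share of gene names with a larger ratio was 1.42% for Kmo, 2.21% for both Haao and Qprt, 3.29% for Acmsd when taken at its bound, 4.15% for Afmid and 19.5% for Ido2. The median log2 ratio was 0.89 over the 6 enzymes detected on both arrays and remained at 0.89 over 5 of them when Tdo2 was left out, compared with -0.03 over the 25442 gene names whose probe was detected on both arrays. Acmsd had a ratio only because it was detected in CMS, and was left out of these medians.

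**Figure D3:**
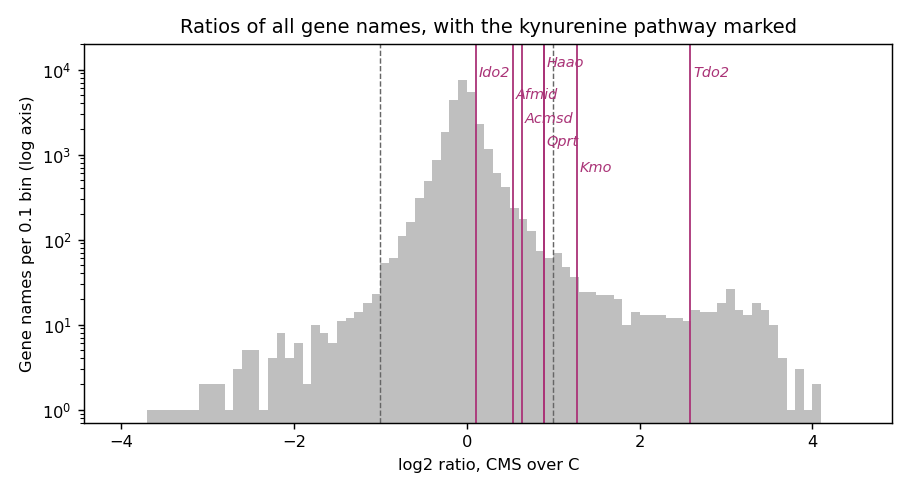
Distribution of log2 ratios of CMS over C over the 27117 gene names with a ratio (bars, 0.1 bins, vertical log axis), with the 7 enzymes marked by lines and a 2-fold difference by dashed lines. The enzymes lie from 0.11 for Ido2 to 2.59 for Tdo2, on the right of the median of all gene names, which was -0.03.

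Tdo2, Kmo, Haao and most other enzymes of the pathway are abundant in hepatocytes, and RNA typical of hepatocytes was higher on the CMS array. Of 40 hepatocyte marker genes, 38 had a ratio, 3 of them only because they were detected in CMS. Of the 38, 31 were more than 2-fold higher in CMS and 0 lower, with a median log2 ratio of 2.94. The median was 2.96 over the 35 detected on both arrays. The summed signal of the 38 was 532632 on the C array and 681445 on the CMS array. Without Slc10a1, whose probe alone made up most of the sum, it was 31410.4 and 147358. Such sums follow the brightest probes of a list and are not amounts of hepatocyte RNA. Cyp1a2 and Cyp7a1 were not detected on either array. The log2 ratio was 3.53 for Alb (albumin) and 3.55 for Hnf4a, the hepatocyte transcription factor on which the study centers. Of the 35 hepatocyte markers detected on both arrays, 23 had a larger ratio than Tdo2, 27 a larger one than Kmo, 30 a larger one than Haao, and 34 a larger one than Ido2. The part of hepatocyte RNA in the ratios of the enzymes was not tested.

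The genes with the log2 ratios nearest to that of Tdo2, among named genes detected on both arrays, were Gulo, C8b, Fetub, Hc and Itih4, with 2.59, 2.59, 2.56, 2.62 and 2.53. C8b and Hc encode complement components, Fetub and Itih4 proteins secreted into plasma, and Gulo the last enzyme of vitamin C synthesis. This likeness is one of a single ratio over 2 arrays.

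Markers of microglia, astrocytes and neurons stayed within 2-fold. The 9 microglia markers had a median log2 ratio of 0.05, from -0.02 to 0.16, and their summed signal was 69521 on the C array and 72657 on the CMS array. The 8 astrocyte markers had a median of -0.03, and the 10 neuron markers, all detected on both arrays, of -0.04. The 7 oligodendrocyte markers had a median of -0.15 and the 7 brain endothelium markers of -0.06, and these also stayed within 2-fold. Of 10 markers of kidney tubule cells, which also express Acmsd and other enzymes of the pathway, 4 were not detected on either array. Of the 6 with a ratio, 0 were more than 2-fold higher, compared with 1.96% of all gene names with a ratio. Slc6a19, a transporter of gut and kidney epithelium, was not in this list and is given below. Kupffer cell and macrophage markers had a median of 0.41 over 5 genes with a ratio, with Clec4f at least 2.20-fold and Vsig4 at least 1.98-fold higher. Both had a ratio only because they were detected in CMS, and the median was 0.29 over the other 3. The 4 erythroid markers with a ratio had a median of 0.45, from 0.41 to 0.62.

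**Figure D4:**
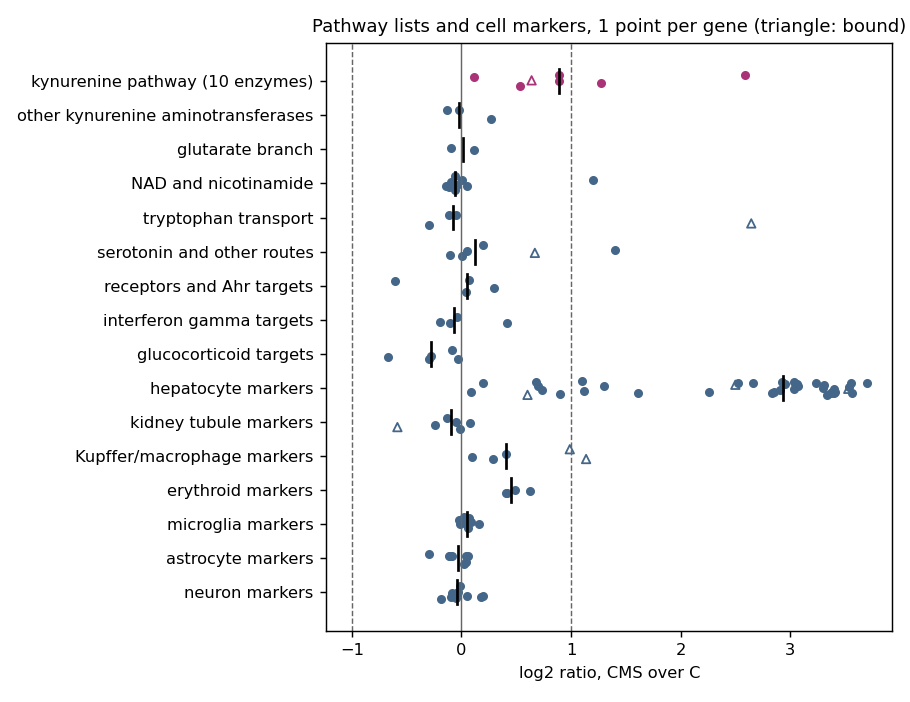
Log2 ratio of CMS over C for each gene with a ratio in the pathway lists and marker lists, 1 point per gene, with bounds as open triangles, list medians as black bars and a 2-fold difference as dashed lines. The oligodendrocyte and brain endothelium markers are not drawn. The median of the kynurenine enzymes with a ratio, 0.89 with the bound of Acmsd included, lies between those of the neuron markers, -0.04, and the hepatocyte markers, 2.94.

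The genes around the pathway were described from lists of its neighbors. Over all gene names with a ratio, 1.96% were more than 2-fold higher and 0.564% lower, so lists this short would hold few at those shares. Of 5 genes of tryptophan transport, 4 had a ratio. Slc6a19, the neutral amino acid transporter of gut and kidney epithelium, gave 3.53 on the C array and 111 on the CMS array. It was detected in CMS only and was at least 6.26-fold higher. The carriers that bring tryptophan across the blood-brain barrier did not pass 2-fold, and Slc7a5 had a log2 ratio of -0.29 and its partner Slc3a2 of -0.12.

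Downstream of quinolinate, 1 of 9 genes of NAD synthesis and nicotinamide use with a ratio was more than 2-fold higher and 0 lower, with a median of -0.06. The exception was Nnmt, which methylates nicotinamide and is abundant in the liver, with 65.4 and 150.2 and a log2 ratio of 1.20 ± 0.23. Nampt, the enzyme of NAD salvage, was at 0.01, and Nadsyn1, which finishes NAD synthesis from the quinolinate route, at -0.06. In the glutarate branch, into which Acmsd feeds, Gcdh was at 0.12 and Dhtkd1 at -0.09.

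Of the competing routes of tryptophan, 6 of 7 genes had a ratio and 1 was more than 2-fold higher. Inmt, which methylates indoleamines, gave 404 on the C array and 1064 on the CMS array, a log2 ratio of 1.40 ± 0.20. Ddc, which completes serotonin synthesis, was at 0.05, and Maoa, which degrades serotonin, at 0.01. Tph2, the neuronal enzyme of serotonin synthesis, was not detected on either array. Tph1, its peripheral counterpart, was detected in CMS only and was at least 1.59-fold higher.

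Of 6 genes for receptors of kynurenines and targets of Ahr, a receptor that binds kynurenine and kynurenate, 4 had a ratio and 0 passed 2-fold in either direction. Ahr itself was at 0.07, and its targets Cyp1b1, Ahrr and Tiparp at 0.04, 0.30 and -0.61. Gpr35, a receptor for kynurenate, and Cyp1a1 were not detected.

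The known inducers of the first step were also looked at. Ifng was not detected on either array, and of its 4 target genes with a ratio, 0 passed 2-fold, with Irf1 at -0.04 and Cxcl9 at 0.42 ± 0.37. The glucocorticoid list of 5 genes had a median of -0.28, with Per1 at -0.67, Sgk1 at -0.30, Fkbp5 at -0.09 and the receptor Nr3c1 at -0.03. None of the list was above 0, compared with 40% of the gene names whose probe was detected on both arrays. Whether either inducer bore on the ratios of the enzymes was not tested.

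**Figure D5:**
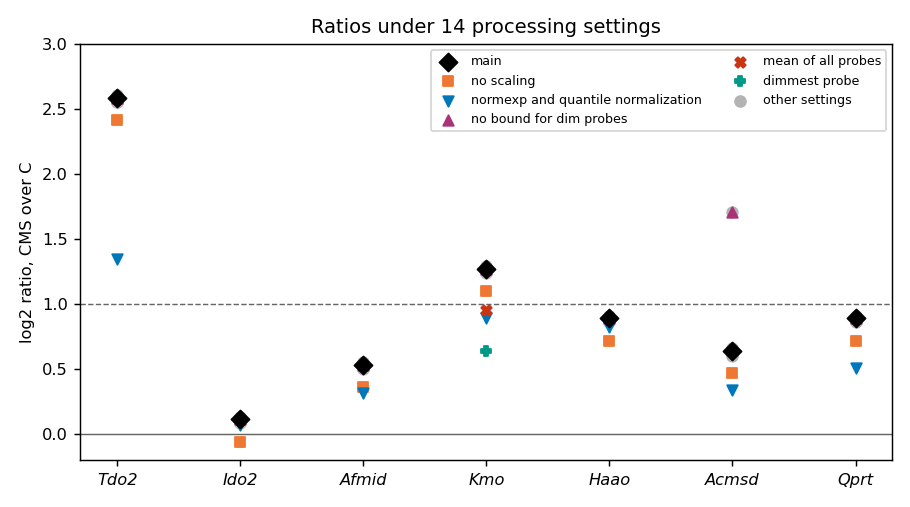
Log2 ratio of CMS over C of the 7 enzymes with a ratio under 14 processing settings, the one used here (black diamonds) and 13 alternatives, with a dashed line at 2-fold. Tdo2 stayed above 2-fold in all of them, from 1.34 under normexp to 2.61, whereas Kmo ran from 0.64 to 1.29 and Ido2 from -0.06 to 0.13. For enzymes with 1 probe detected on both arrays, such as Tdo2, the bound, the filters and the choice of probe could not change the ratio.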

How the data were processed

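Per the labels and the study's methods, total RNA was pooled per group, labeled with Cy3 and hybridized to Agilent SurePrint G3 Mouse arrays. The authors' scanner software, Agilent Feature Extraction 10.10.1.1, gave the deposited linear intensity of each spot, from which background and spatial trends had been removed. Flags of 0 or 1, such as well above background, stand beside each intensity. The deposited series table holds the same intensities scaled by 1 factor per array. Each array had 59305 spots outside the controls, of which 65.2% were well above background in C and 65.9% in CMS, and 0 saturated. Both arrays lay on 1 slide, so a slide effect could not be fitted.

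Here, control spots and outlier spots (130 in C, 133 in CMS) were left out, spots of 1 probe were averaged, and arrays were scaled to a mean of 2500, as the methods state. A probe was detected where at least 0.5 of its spots were well above background. For a gene with several probes, the one brightest in mean log2 signal was kept. A bound under 1 gave no ratio. Accessions were named without versions through the RefSeq table of GRCm38.p6, which named 30740 spots. Genes were called above 2-fold or below 0.5. Scanner errors of both spots were propagated to the log2 ratio. The enzymes, lists and motifs were chosen with earlier results of these data known. Genes named are the enzymes, the listed genes, Hnf4a and the 5 genes nearest to Tdo2 in log2 ratio. Gapdh had a log2 ratio of 0.04. The number of arrays limits the precision, and the median probe lay only 3.64 (C) and 3.76 (CMS) times above the lowest detected signal. The calling was tested on simulated data. Alternatives covered scaling, background correction, the bound, filters, outlier spots and the choice of probe. Python 3.11.15, numpy 2.4.6, pandas 2.3.3, R 4.3.3 and limma 3.58.1 were used.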

Additional observations from a re-analysis of the deposited data

How the results depend on the processing

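No paired analysis was possible because each group had 1 array, and for the same reason no replicate could be left out. A shift counted as a move if it exceeded 0.13 for a log2 ratio (the SD between spots of a probe), 0.06 for the median of the enzymes, and 1.5 times for a count. Of 65 comparisons of the main results with the 13 alternatives, 56 stayed within these limits and 9 moved. The 56 include all 13 for the number detected on both arrays. That number rests on the scanner's flags, which scaling, background correction and the bound leave unchanged. Keeping outlier spots could move the enzymes only through the scaling, since none of their spots was marked. Tdo2, Ido2, Afmid, Haao and Qprt each had 1 probe, detected on both arrays. The bound, the filters and the choice of probe could therefore not change their ratios. Trimmed mean scaling and the deposited table were nearly the same setting, with Tdo2 at 2.60 in both. Much of this agreement, for the main results and for the other enzymes, was thus fixed in advance. The number of enzymes more than 2-fold higher, 2, was 1 under normexp, with the mean of all probes and with the dimmest probe, all through Kmo. It was 3 with no bound for dim probes, which adds Acmsd, and 4 with no filter, which adds Acmsd and Kynu. The median of the enzymes with a ratio, 0.89, fell to 0.51 under normexp, to 0.64 for the dimmest probe and to 0.72 without scaling. Tdo2 was at 2.41 with no scaling and at 1.34 under normexp. Leaving out the scaling also moved the median of all gene names from -0.03 to -0.20. The number lower stayed at 0 and that detected on both arrays at 6. For the other enzymes, 63 of 77 values stayed within the limit. Normexp ran on median spot intensities and added 50 to every corrected signal, which shrinks the ratios of dim probes. Under it, gene names more than 2-fold higher fell from 532 to 265. Normexp without the added constant was not run, so its part in the normexp moves was not tested. The causes of the moves listed here were not tested otherwise. Ido1, Kynu and Aadat, under the limit of detection on both arrays, gave no ratio, and in the C pool Acmsd lay under that limit and Tdo2 just above it.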
